A study of Mus musculus with 6 samples.

Results

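The proteasome subunit genes were taken as the rows of the deposited gene table whose symbol begins with Psm, a letter from a to g and a number, without the immunoproteasome genes Psmb8 and Psmb9. This rule found 48 genes among 23845. RNA had been sequenced from 6 libraries of mouse cells labelled intestinal epithelial cells, 2 in each of 3 groups. The EGFP group had the genotype Neurog3+/-EGFP on C57BL6, so these cells carried a single allele of Neurog3, the transcription factor that starts enteroendocrine differentiation, beside a green reporter. The EYFP group had the genotype Neurog3+/+EYFP on a mixed C57BL6 and CD1 background, with both Neurog3 alleles and a yellow reporter. The wild-type group was C57BL6, without a reporter in its labels, and its titles begin with Duod. The series' design text says that reporter cells were isolated by fluorescence. The sources used here give no age and no gate, and do not say if wild-type cells went through the sorter. Allele number, reporter, strain and, by the transcripts given below, sex all differ between the EYFP and EGFP groups and cannot be told apart. Nothing in the labels says that replicates came from separate animals, so p-values measure only the spread between these libraries. By the same transcripts the wild-type libraries differed in sex, so they did not come from the same animal. In EGFP and EYFP the spread between replicates may be technical.

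The proteasome is the protease that degrades ubiquitin-tagged proteins in the cytosol and nucleus. Its 20S core is a barrel of alpha rings around beta rings, and the beta subunits Psmb5, Psmb6 and Psmb7 carry the active sites. The 19S particle caps the barrel, binds ubiquitin chains and unfolds the substrate with a ring of ATPases, and together they form the 26S proteasome. Interferon replaces the active beta subunits with Psmb8, Psmb9 and Psmb10 and raises the cap proteins Psme1 and Psme2, which favours peptides for antigen presentation. In most cells the genes of the core and the 19S particle are expressed at matched levels.

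Library totals ran from 7938358 to 20589683 estimated counts, and the 48 genes together made up 0.440% to 0.523% of each library. Neurog3, which checks the labels, stood at 120 and 179 CPM in EGFP, 563 and 348 in EYFP, and 6.0 and 6.39 in wild type, where CPM are counts per 1000000 counts of the scaled library. The epithelial marker Epcam was between 575 and 1612 CPM in every library. The other cell types differed by group. The summed level of 6 enteroendocrine markers was 8592 and 12825 CPM in EGFP, 58932 and 43892 in EYFP, and 485 and 547 in wild type, and all 6 differed in the same direction in each comparison. The 6 goblet markers summed to 59236 and 95779 CPM in EGFP, 695 and 1788 in EYFP, and 5324 and 6357 in wild type. The 5 Paneth markers summed to 6747 and 7569 CPM in EGFP, 406 and 201 in EYFP, and 5851 and 7368 in wild type, and the 4 tuft markers to 177 and 103, 5.0 and 13.5, and 19.9 and 83.1. The sorted cells held few enterocyte transcripts: 6 markers summed to 811 and 1111 CPM in EGFP, 678 and 1357 in EYFP, and 20770 and 32497 in wild type. Among 8 cycling markers the sums were 1198 and 1064 CPM in EGFP, 227 and 304 in EYFP, and 1250 and 881 in wild type. Of 6 immune markers, Ptprc, a leukocyte surface protein, reached 47.6 and 56.5 CPM in wild type against 1.21 to 6.13 in the sorted cells, while the macrophage gene Lyz2 stood apart at 207 CPM in EYFP replicate 1 and at 0.168 to 29.3 in the other libraries. In bulk samples, fewer cells of a type and less RNA per cell cannot be told apart. Xist, transcribed from the inactive X chromosome, was at 966 and 969 CPM in EGFP, 0.634 and 2.36 in EYFP, and 1.17 and 726 in wild type. The Y-linked Ddx3y was at 0 CPM in both EGFP libraries, 37.3 and 39.3 in EYFP, and 62.4 and 0.121 in wild type. Sex therefore differed between EYFP and EGFP and within wild type. Among the members, Psmd10 is the X-linked gene, and it did not pass the test in any comparison. The part of these marker differences in the results on the proteasome genes was not tested.

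Of the 48 genes, 46 had enough counts to be tested, and 2 did not. Psma8, the alpha subunit known from the testis, had 0 counts in every library. Psme2b, a near-copy of Psme2, had 0 to 11.5 estimated counts per library, and reads of the copies may have been divided between them. By role the 48 genes were 7 alpha subunits, 7 beta subunits, 2 specialised beta subunits (Psmb10 and the thymic Psmb11), 6 ATPases and 11 other subunits of the 19S particle, 5 activators or inhibitors, 7 assembly factors and 3 others. Psmc3ip is among the others: its symbol fits the rule, but it encodes a protein of meiotic recombination and not a proteasome subunit. Of its exon bases, 29.8% overlap those of Mlx on the opposite strand, a gene with 8220 counts over all libraries. The strand setting of the counting is not given in the sources used here, so the level of Psmc3ip is uncertain. Psmc3ip was low, at 4.94 and 2.45 CPM in EGFP, 1.55 and 1.60 in EYFP, and 2.91 and 2.23 in wild type. It passed the test in no comparison. Psmb11 ranged from 0.5 to 1.21 CPM and also passed in none.

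Levels between genes were compared per kilobase of transcript, as CPM per kb averaged over the libraries. The 31 subunits of the 26S proteasome had a median of 80.9 CPM per kb and ranged from 23.5 for Psmd11 to 162 for Psmb6. The core stood above the cap by its medians, 99.8 for alpha and 114 for beta subunits. Those of the ATPases and the other 19S subunits were 73.3 and 51.1. Single genes overlapped, with the alpha subunit Psma2 at 40.8 and the ATPase Psmc5 at 91.1. Assembly factors, the chaperones that build the particle and leave it, were lower, from 9.13 for Psmd5 to 21.5 for Psmg3. The interferon-inducible cap subunit Psme2 had the highest mean of the 48 genes at 281, which rested on the wild-type and EGFP libraries: it was 442 in wild type, 253 in EGFP and 149 in EYFP, where Psme1 at 144 and Psmb6 at 148 were close to it. The order of neighbours in this ranking was not tested.

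**Figure D1:**
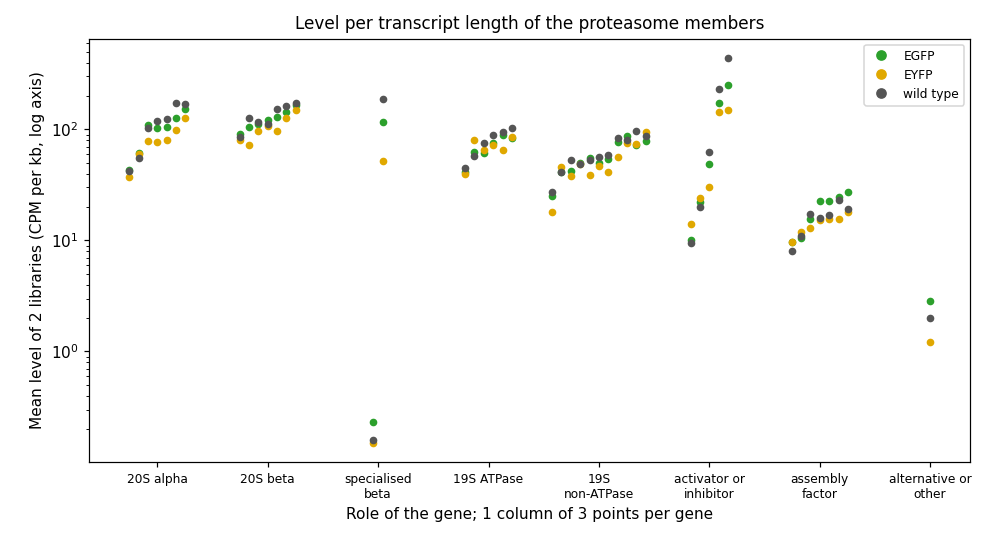
Mean level of each tested proteasome gene in CPM per kb of transcript (log axis), arranged by role; each gene is a column of 3 points, the means of the 2 libraries of EGFP, EYFP and wild type. The 26S subunits lie between 23.5 and 162 when averaged over the libraries, the assembly factors lie below them, and Psme2 stands at the top at 281.

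EYFP and EGFP cells, the comparison between both alleles and a single allele of Neurog3, differed little in the 26S proteasome. Of its 31 subunit genes, 8 were lower in EYFP, none was higher and 23 did not pass the test, which was edgeR's quasi-likelihood test with Benjamini-Hochberg adjustment over 13935 genes at 0.05. Over all 46 tested members, 12 were lower and 1 was higher, or 26.1% and 2.17%. Among all genes tested, 19.4% were lower and 16.8% were higher. The share of lower members was above the background here. It stayed above with a replicate block (32.6% against 21%) and in a fit of only the 4 libraries compared (31.1% against 21.9%). Without a filter on low counts it was 19.1% against 14.5%, and with a minimum of 10 counts 28.9% against 19.6%. Scaled without the 50 most abundant genes, it was 28.3% against 19.5%. It was below the background with DESeq2's size factors (13% against 17.4%), DESeq2's Wald test (10.9% against 17.9%) and upper-quartile scaling (17.4% against 18.9%). It was also below the background when any of the 4 libraries compared was left out, from 2.17% against 10.4% without EYFP replicate 1 to 10.9% against 13.4% without EGFP replicate 2. The median log2 fold change was -0.24 over the members and -0.19 over the 26S subunits, against 0.01 over all genes. Fold changes of the 26S subunits spanned -0.54 to 0.35, and their interquartile range was 0.37, against 1.07 over all genes. Both EYFP libraries lay below both EGFP libraries for 27 of the 46 members, or above them for 4. The same was true of 37% of all genes for lower and 37.3% for higher.

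**Figure D2:**
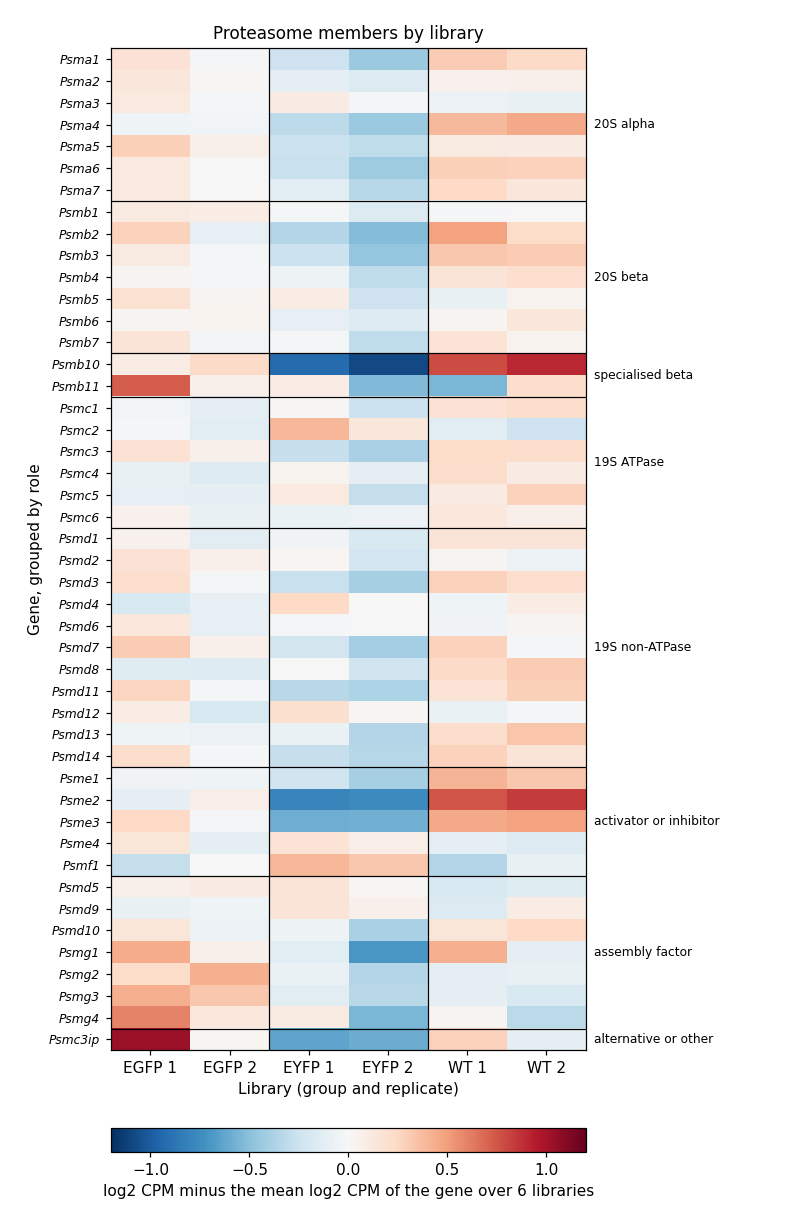
Level of the 46 tested proteasome genes in each of the 6 libraries, as log2 CPM minus the gene's own mean log2 CPM over the libraries (colour scale cut at 1.2 either way), grouped by role. Most 26S genes vary little, whereas Psmb10, Psme2 and Psme3 are lowest in both EYFP libraries and highest in both wild-type libraries.

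The constitutive catalytic subunits did not pass the test in any comparison. Psmb5, the chymotrypsin-like site, was at 116 and 104 CPM in EGFP, 109 and 85.9 in EYFP, and 96 and 105 in wild type. Psmb6, the caspase-like site, was at 132 and 134 CPM in EGFP, 121 and 116 in EYFP, and 132 and 143 in wild type. Psmb7, the trypsin-like site, was at 139 and 122 CPM in EGFP, 123 and 101 in EYFP, and 140 and 129 in wild type. For Psmb6 and Psmb7 the EYFP libraries were the lowest or among the lowest, and for Psmb5 the 3 groups overlapped. The EYFP over EGFP ratio was 0.88 for Psmb5 (95% interval 0.69 to 1.14), 0.89 for Psmb6 (0.73 to 1.09) and 0.86 for Psmb7 (0.67 to 1.09), so these intervals leave room for modest reductions. Of the exon bases of Psmb7, 34.9% overlap those of Nek6 on the opposite strand, and the strand setting of the counting is not given in the sources used here, so the level of Psmb7 is uncertain.

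Among all 14 core genes, catalytic subunits included, 4 were lower in EYFP cells: Psma1, Psma5, Psma6 and Psmb2. Of all genes tested, 19.4% were lower. The other 10 core genes did not pass, and all 14 log2 fold changes were negative, as were those of 6904 of the 13935 genes tested. Psma5, an alpha-ring subunit, was at 146 and 126 CPM in EGFP, 100 and 96.7 in EYFP, and 129 and 128 in wild type. Both EYFP libraries were the lowest of the 6. The log2 fold change of Psma5 in EYFP over EGFP was -0.46 ± 0.13 (SE; edgeR adjusted p = 0.0304), and -0.30 without EGFP replicate 1. Psmb2, a beta-ring subunit without an active site, was at 103 and 79.2 CPM in EGFP, 66.4 and 59.1 in EYFP, and 119 and 98.8 in wild type. Here too EYFP was lowest, with a log2 fold change of -0.54 ± 0.17 over EGFP (edgeR adjusted p = 0.0456), but the EGFP replicates differed more from each other than EGFP replicate 2 did from EYFP replicate 1, and without EGFP replicate 1 the fold change was -0.28. Psmb3 stood just outside the threshold at an edgeR adjusted p of 0.0504.

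In the 19S particle 4 of 17 genes were lower in EYFP over EGFP and 0 were higher, beside 19.4% and 16.8% of all genes. Among its ATPases, Psmc3 was lower in EYFP, at 150 and 139 CPM in EGFP, 110 and 102 in EYFP, and 155 and 154 in wild type, with a log2 fold change of -0.45 ± 0.13 over EGFP (edgeR adjusted p = 0.0293). Psmc2, another ATPase of the same ring, went the other way, at 115 and 108 CPM in EGFP, 155 and 130 in EYFP, and 107 and 99.2 in wild type. Both EYFP libraries were above the other 4, but the fold change of Psmc2 over EGFP, 0.35 ± 0.14, did not pass (edgeR adjusted p = 0.0926). The other 4 ATPases had log2 fold changes from -0.06 to 0.09. Among the 11 non-ATPase genes 3 were lower, Psmd3, Psmd7 and Psmd11, beside 19.4% of all genes. Psmd7, a scaffold partner of the deubiquitinase, was at 94.6 and 80.2 CPM in EGFP, 65.8 and 57.6 in EYFP, and 92.9 and 76.2 in wild type, a log2 fold change of -0.50 ± 0.16 over EGFP (edgeR adjusted p = 0.0445). Without EGFP replicate 1 the log2 fold changes were -0.32 for Psmd7, -0.29 for Psmd11, -0.26 for Psmd3 and -0.28 for Psma1.

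The members that handle ubiquitin, Psmd1, Psmd2, Psmd4 and Psmd14, did not pass the test between EYFP and EGFP. Psmd4, a ubiquitin receptor, was at 98.9 and 105 CPM in EGFP, 133 and 112 in EYFP, and 108 and 119 in wild type, with a log2 fold change of 0.27 ± 0.14 in EYFP over EGFP (edgeR adjusted p = 0.177). Psmd14, the deubiquitinase that removes the chain from the substrate, was at 90.5 and 77.1 CPM in EGFP, 64.8 and 61.7 in EYFP, and 94.6 and 87.3 in wild type. Its fold change over EGFP, -0.40 ± 0.14, fell just outside the threshold (edgeR adjusted p = 0.0551). Psmd1, the large scaffold that docks ubiquitin receptors, was at 164 and 146 CPM in EGFP, 153 and 140 in EYFP, and 176 in both wild-type libraries. Psmd2, the other large scaffold, was at 270 and 251 CPM in EGFP, 244 and 205 in EYFP, and 246 and 229 in wild type. The groups overlapped for Psmd1 between EYFP and EGFP, and the log2 fold changes of Psmd1 and Psmd2 over EGFP were -0.08 ± 0.13 and -0.21 ± 0.15.

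Because a shift of the whole complex depends on how libraries are scaled, each gene was also expressed relative to the geometric mean of the 31 subunits in its own library, which needs no scaling. Psmc2 was 0.08 and 0.05 log2 units below that mean in the EGFP libraries, 0.24 and 0.34 below it in wild type, and 0.52 and 0.43 above it in EYFP. Psmd4 was 0.30 and 0.09 below the mean in EGFP, 0.23 and 0.08 below it in wild type, and 0.29 and 0.23 above it in EYFP. Psma5 was 0.26 and 0.17 above the mean in EGFP, 0.11 below and 0.01 above it in EYFP, and 0.03 above it in both wild-type libraries. On this measure both EYFP libraries lay above both EGFP libraries for 5 of 6 ATPases and 5 of 11 other 19S subunits. They did so for 1 of 7 alpha and 0 of 7 beta subunits. They lay below for 1, 4, 5 and 2 genes of these sets in turn. In CPM, 37.3% of all genes lay above and 37% below between these groups. The values describe single subunits, and whether the make-up of the 26S transcripts differed beyond that background was not tested.

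The clearest differences lay in the interferon-inducible members and in the activators. Psmb10, the inducible form of the trypsin-like site, was at 146 and 161 CPM in EGFP, 72.4 and 64.6 in EYFP, and 236 and 257 in wild type. The 3 groups did not overlap, with EYFP lowest and wild type highest. The log2 fold change of Psmb10 was -1.16 ± 0.14 in EYFP over EGFP (edgeR adjusted p = 0.00103), -0.68 ± 0.14 in EGFP over wild type (0.00573) and -1.85 ± 0.14 in EYFP over wild type (2.99e-05). Psme2, the beta subunit of the inducible 11S cap, was at 207 and 237 CPM in EGFP, 130 and 132 in EYFP, and 377 and 400 in wild type. It had the same order of groups without overlap. Its log2 fold change was -0.76 ± 0.15 in EYFP over EGFP (edgeR adjusted p = 0.00603), -0.81 ± 0.14 in EGFP over wild type (0.00314) and -1.57 ± 0.15 in EYFP over wild type (7.04e-05).

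Psme1, the alpha subunit of the same cap, moved less than Psme2. It was at 193 CPM in both EGFP libraries, 169 and 152 in EYFP, and 265 and 249 in wild type, again with no overlap. Psme1 was lower than wild type in EGFP (log2 fold change -0.42 ± 0.14, edgeR adjusted p = 0.0421) and in EYFP (-0.68 ± 0.14, 0.00326), and did not pass between EYFP and EGFP (-0.27 ± 0.14, 0.164). The ratio of Psme1 to Psme2 per kb was 0.736 and 0.643 in EGFP, 1.03 and 0.909 in EYFP, and 0.555 and 0.493 in wild type. The ratio was thus highest in EYFP cells. How near it lies to parity depends on the annotated transcript lengths used. Psme3, the nuclear cap of the same family that is not induced by interferon, was at 142 and 118 CPM in EGFP, 80.1 and 80.4 in EYFP, and 165 and 168 in wild type. Its log2 fold change was -0.70 ± 0.14 in EYFP over EGFP (edgeR adjusted p = 0.00765) and -1.05 ± 0.14 in EYFP over wild type (0.000423), and it did not pass in EGFP over wild type (-0.35 ± 0.14, 0.0768).

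Psmf1 and Psme4 did not follow the other regulators. Psmf1, an inhibitor of the core, was at 34.4 and 42.1 CPM in EGFP, 55.4 and 52.6 in EYFP, and 32.9 and 39.5 in wild type, so that both EYFP libraries were above the other 4. It rose in EYFP over EGFP by 0.50 ± 0.17 on the log2 scale, at an edgeR adjusted p of 0.04999, and over wild type by 0.58 ± 0.16 (0.0171). The first of these calls was lost when any library of either group was left out, and the second when EYFP replicate 1, EYFP replicate 2 or wild-type replicate 1 was. Psme4, a large activator of the core, ranged from 128 to 160 CPM and did not pass in any comparison.

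**Figure D3:**
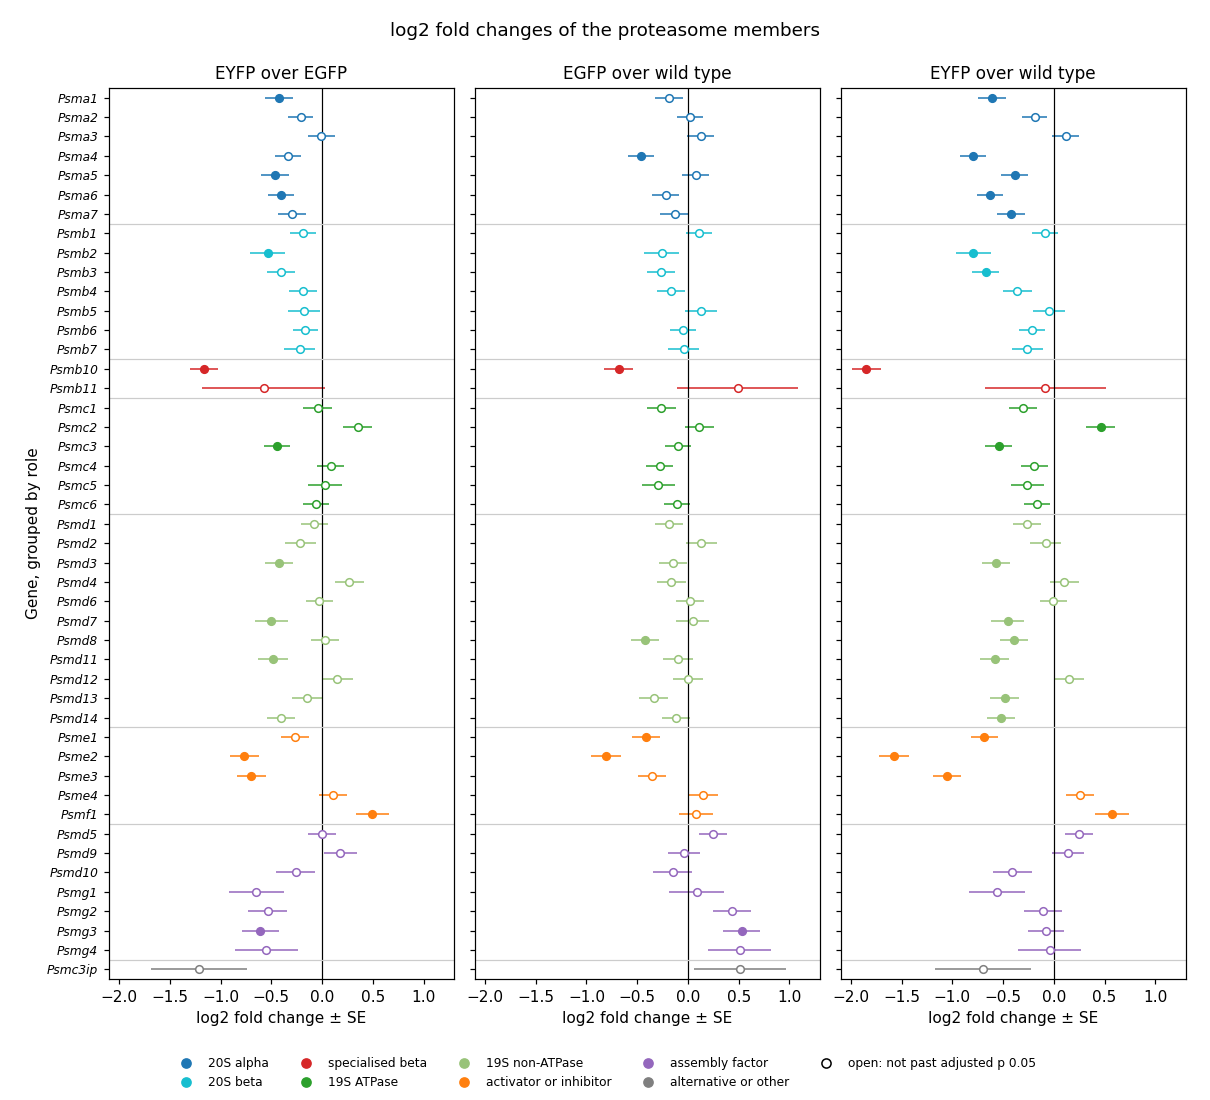
log2 fold change ± SE of the 46 tested proteasome genes in the 3 comparisons, coloured by role; filled points passed edgeR's adjusted p threshold of 0.05 and open points did not. Psmb10 and Psme2 are filled and left of 0 in all 3 panels, the catalytic subunits Psmb5, Psmb6 and Psmb7 are open in all 3, and Psmf1 is right of 0 in both panels with EYFP. The same wild-type libraries enter both panels against wild type.

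Each inducible catalytic subunit was set against the constitutive subunit whose place it takes, as a ratio of CPM per kb within each library, which does not depend on scaling. Psmb10 over Psmb7 was 0.929 and 1.17 in EGFP, 0.522 and 0.564 in EYFP, and 1.49 and 1.77 in wild type. This ratio is uncertain in the same way as the level of Psmb7, whose exons overlap those of Nek6. The other inducible subunits, Psmb8 and Psmb9, lie outside the rule. Psmb8 over Psmb5 was 0.751 and 0.945 in EGFP, 0.237 and 0.245 in EYFP, and 1.10 and 0.823 in wild type. Psmb9 over Psmb6 was 0.440 and 0.467 in EGFP, 0.107 and 0.103 in EYFP, and 0.464 and 0.336 in wild type. EYFP was lowest in all 3 ratios, but EGFP and wild type overlapped for Psmb8 and Psmb9 and were apart for Psmb10.

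**Figure D4:**
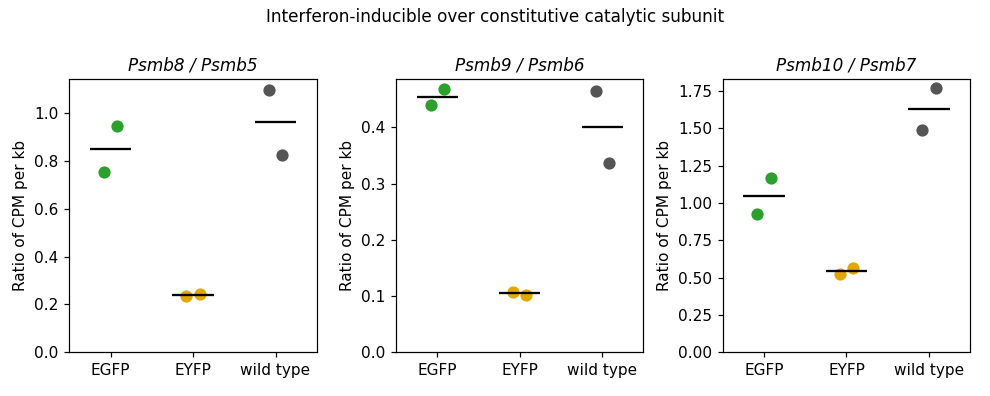
Ratio of each interferon-inducible catalytic subunit to its constitutive counterpart in CPM per kb, from 0 on a linear axis; points are libraries and the bar is the mean of 2. EYFP libraries are lowest in every panel (0.522 and 0.564 for Psmb10 over Psmb7), and EGFP and wild type separate in the Psmb10 panel alone. That panel carries the uncertainty in the level of Psmb7.

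Promoter sequences are shown for the interferon-inducible members within the rule, Psmb10 and the pair Psme1 and Psme2. The catalytic Psmb5, which did not pass the test, is shown so that a reader can set them side by side. They are the 250 bases before the start site from RefSeq on GRCm38.p6 (mm10), with capitals marking any match to the motifs searched.
Psmb10, chr8:105938393-105938642, minus strand: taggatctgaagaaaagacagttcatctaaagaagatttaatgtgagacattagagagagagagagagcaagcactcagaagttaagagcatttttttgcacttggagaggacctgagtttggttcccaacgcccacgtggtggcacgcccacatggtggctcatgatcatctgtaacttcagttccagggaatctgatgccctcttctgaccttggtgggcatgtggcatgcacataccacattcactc
Psme1, chr14:55578244-55578493, plus strand: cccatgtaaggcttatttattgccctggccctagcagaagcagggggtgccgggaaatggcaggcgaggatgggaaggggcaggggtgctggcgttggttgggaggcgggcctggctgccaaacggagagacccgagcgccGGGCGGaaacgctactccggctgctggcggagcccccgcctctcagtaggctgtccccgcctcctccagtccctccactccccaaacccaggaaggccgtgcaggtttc
Psme2, chr14:55591102-55591351, minus strand: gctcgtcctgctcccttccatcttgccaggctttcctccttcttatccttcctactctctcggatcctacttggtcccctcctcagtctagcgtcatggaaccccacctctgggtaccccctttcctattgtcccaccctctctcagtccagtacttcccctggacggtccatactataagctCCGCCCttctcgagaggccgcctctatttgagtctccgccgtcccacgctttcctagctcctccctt
Psmb5, chr14:54617996-54618245, minus strand: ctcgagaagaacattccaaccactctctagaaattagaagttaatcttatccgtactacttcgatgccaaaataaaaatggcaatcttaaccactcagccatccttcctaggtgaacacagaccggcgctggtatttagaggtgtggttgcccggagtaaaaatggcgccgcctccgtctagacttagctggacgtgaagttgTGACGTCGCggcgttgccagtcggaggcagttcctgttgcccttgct
The motifs were TGACNNNGC (core of the antioxidant response element bound by Nfe2l1 and Nfe2l2), CCAAT (the CCAAT box), GGGCGG (the GC box), GAAANNGAA (an interferon response element) and TTCNNNGAA (a STAT site), each on both strands over 300 bases, from 250 before to 50 after the start. In capitals, Psmb5 shows an antioxidant element whose first base is 47 bases before the start, Psme1 a GC box 109 before it and Psme2 a GC box 67 before it. Psmb10 has no match to these letters in its window. Beyond the printed part, Psme1 also has an interferon element from base 11 after the start, and Psme2 a GC box from base 28. RefSeq windows were found for 40 of the 48 genes, among them 25 of the 31 subunits of the 26S proteasome. The GC box was in 60% of those 25, against 35.9% of 27025 genes. The antioxidant element was in 16% against 12.5%, the CCAAT box in 40% against 37.9%, the interferon element in 12% against 8.57% and the STAT site in 4% against 8.47%. A match is a string of letters and not a measured binding site.

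Against wild type, EGFP cells differed in few members. Of 46 tested, 5 were lower, namely Psma4, Psmb10, Psmd8, Psme1 and Psme2, and Psmg3 was higher, or 10.9% and 2.17%. Among all genes 21.9% were lower and 19.6% higher, so both shares of members lay below the background. The median log2 fold change was -0.10 over the members and -0.12 over the 26S subunits, against 0.00 over all genes, and the interquartile range of the 26S subunits was 0.26 against 1.11. Both EGFP libraries lay below both wild-type libraries for 20 members and above them for 8, while this held for 36.2% and 35% of all genes. Psma4, an alpha-ring subunit, was at 146 and 147 CPM in EGFP, 121 and 111 in EYFP, and 197 and 207 in wild type. Its log2 fold change was -0.46 ± 0.13 in EGFP over wild type (edgeR adjusted p = 0.0217) and -0.80 ± 0.13 in EYFP over wild type (0.00111). Psma4 shares 9.79% of its exon bases with AY074887 on the opposite strand. Psmd8, a 19S lid subunit, was at 110 and 109 CPM in EGFP, 121 and 103 in EYFP, and 142 and 150 in wild type, a log2 fold change of -0.42 ± 0.14 in EGFP (edgeR adjusted p = 0.0412). Both sorted groups lay below wild type for Psmd8 and overlapped each other.

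EYFP cells differed from wild type in more members, and almost all of these were lower. Of 46 tested, 18 were lower and 2, Psmc2 and Psmf1, were higher, or 39.1% and 4.35%. Among all genes 33.5% were lower and 27.1% higher. The share of lower members was thus near the background and the share of higher members below it. The median log2 fold change was -0.28 over the members and -0.30 over the 26S subunits, against -0.12 over all genes. Both EYFP libraries lay below both wild-type libraries for 30 members and above them for 6, against 45% and 37% of all genes. Psmc2 was higher than wild type by 0.46 ± 0.14 on the log2 scale (edgeR adjusted p = 0.024). The lower members included Psmb2 at -0.79 ± 0.17 (edgeR adjusted p = 0.00511), Psmd11, a 19S lid subunit, at -0.58 ± 0.14 (0.00895), and Psmc3 at -0.54 ± 0.13 (0.00719). Psmd11 was at 79.0 and 65.4 CPM in EGFP, 52.4 and 50.7 in EYFP, and 73.9 and 80.5 in wild type, so EYFP was lowest and the other groups overlapped.

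The direction against wild type rests on the scaling. As a share of raw library counts, the 31 subunits made up 0.412% and 0.366% of the EGFP libraries, 0.405% and 0.366% of EYFP, and 0.360% and 0.328% of wild type, so on this scale wild type was the lowest. The trimmed-mean scaling factors were 1.05 and 1.01 in EGFP, 1.14 and 1.17 in EYFP, and 0.879 and 0.806 in wild type, and these place wild type higher. Under upper-quartile scaling, chosen after seeing the data, the 26S median in EGFP over wild type became 0.14 and that of all genes 0.27, and in EYFP over wild type they became -0.02 and 0.16. A change of scaling moves all genes alike, so the gap between the 26S median and that of all genes does not depend on it. The gap was -0.12 in EGFP over wild type, -0.18 in EYFP over wild type and -0.20 in EYFP over EGFP. It did depend on the libraries: it was -0.05 in EGFP over wild type without EGFP replicate 2, -0.09 in EYFP over wild type without EYFP replicate 2, and between -0.10 (without EYFP replicate 2) and -0.31 (without EYFP replicate 1) in EYFP over EGFP. The 26S median in EYFP over EGFP was -0.12 with DESeq2's size factors, -0.11 without EGFP replicate 1, -0.10 without EYFP replicate 2 and -0.31 without EYFP replicate 1.

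The assembly factors Psmg1 to Psmg4, which build the alpha ring, were described beside Psmd5, Psmd9 and Psmd10, which chaperone the ATPase ring. Psmg3 was at 25.1 and 23.3 CPM in EGFP, 16.9 and 14.8 in EYFP, and 17.2 and 16.3 in wild type. EGFP was highest and the other groups overlapped. The log2 fold change of Psmg3 was -0.61 ± 0.18 in EYFP over EGFP (edgeR adjusted p = 0.0321) and 0.53 ± 0.18 in EGFP over wild type (0.0467). The first call was lost under DESeq2's Wald test and when any library of either group was left out. Over the 14 alternative fits its log2 fold change ran from -0.71 to -0.50. Leaving out any library of the study ended the second call. Psmg1, Psmg2 and Psmg4 had log2 fold changes of -0.65, -0.54 and -0.55 in EYFP over EGFP and did not pass, with edgeR adjusted p of 0.104, 0.0579 and 0.201. Those of the ATPase-ring chaperones were 0.00 for Psmd5, 0.18 for Psmd9 and -0.26 for Psmd10.

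Other genes of the pathway were read from 4 lists chosen with earlier results of these data known. The background for their counts is that of all genes tested: 19.4% lower and 16.8% higher in EYFP over EGFP, 21.9% and 19.6% in EGFP over wild type, and 33.5% and 27.1% in EYFP over wild type. Of 19 proteasome-associated and regulatory genes, 5 were lower and 1 was higher in EYFP over EGFP, 2 were lower and 0 higher in EGFP over wild type, and 5 were lower and 0 higher in EYFP over wild type. Uchl5, a deubiquitinase of the 19S particle, fell by 0.87 on the log2 scale in EYFP over EGFP (edgeR adjusted p = 0.00866). Nfe2l1, the factor that raises subunit genes when the proteasome is short, was at 142 to 185 CPM and did not pass in any comparison. Nfe2l2, the oxidative stress factor, was at 130 and 149 CPM in EGFP, 78.8 and 94.3 in EYFP, and 435 and 407 in wild type. It was the list's largest change against wild type, at -1.60 in EGFP and -2.28 in EYFP (edgeR adjusted p = 0.000215 and 2.13e-05). Nfe2l2 was also lower in EYFP over EGFP, at -0.69 ± 0.16 (edgeR adjusted p = 0.0129).

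Among the genes that supply ubiquitin, Rps27a, which encodes ubiquitin fused to a ribosomal protein, had a log2 fold change of -0.76 ± 0.18 in EYFP over EGFP (edgeR adjusted p = 0.0144). Ubb, a polyubiquitin gene, was at 1744 and 1446 CPM in EGFP, 2668 and 2482 in EYFP, and 2184 and 2633 in wild type, with an edgeR adjusted p of 0.0518 in EYFP over EGFP. Of 14 shuttle factors and partners of the unfoldase Vcp, 1 was higher and 0 lower in EYFP over EGFP, 2 higher and 2 lower in EGFP over wild type, and 1 higher and 2 lower in EYFP over wild type. The shuttle factor Ubqln2 was at 62.0 and 58.3 CPM in EGFP, 133 and 115 in EYFP, and 25.2 and 18.9 in wild type. It was higher in all 3 comparisons, by 1.04, 1.45 and 2.49 on the log2 scale. Vcp itself, at 445 to 618 CPM, passed in none.

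The interferon and antigen presentation list held mostly lower genes in the comparisons with EYFP. Of its 16 genes, none of which is a member, 12 were lower in EYFP over EGFP, 6 in EGFP over wild type and 14 in EYFP over wild type, and none was higher. Of all genes tested, 19.4%, 21.9% and 33.5% were lower. The median log2 fold changes were -1.82, -0.47 and -2.09, against 0.01, 0.00 and -0.12 over all genes. Psmb8 was at 158 and 178 CPM in EGFP, 46.7 and 38.1 in EYFP, and 191 and 157 in wild type. Psmb9 was at 98.7 and 106 CPM in EGFP, 21.8 and 20.3 in EYFP, and 104 and 81.2 in wild type. Both had log2 fold changes near 0 in EGFP over wild type, -0.05 and 0.14, where Psmb10 and Psme2 were lower. B2m, the light chain of class I molecules, was lower in EGFP than in wild type by 1.60 ± 0.18 on the log2 scale, and Ifit1, an antiviral gene induced by interferon, fell by 1.79 there, the largest change of the list. Zbp1, a nucleic acid sensor, fell by 3.56 in EYFP over EGFP, from 35.0 and 36.4 CPM to 1.97 and 4.12. Ifit1 fell by 4.39 in EYFP over wild type, from 20.4 and 36.0 CPM to 0.493 and 2.27, and was at 7.36 and 8.88 in EGFP. Both genes were thus low in EYFP. The immune marker Ptprc, higher in wild type, moves with the comparisons against wild type, and its part in the levels of Psmb10, Psme1 and Psme2 there was not tested.

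Replicates of the 26S genes lay close together. The median absolute log2 ratio between the 2 libraries of a group was 0.12 in EGFP, 0.17 in EYFP and 0.07 in wild type, against 0.20, 0.19 and 0.25 over all genes. In EYFP over EGFP the number of lower members fell from 12 to 2, 5, 1 and 3 without EGFP replicate 1, EGFP replicate 2, EYFP replicate 1 and EYFP replicate 2 in turn. Psmb10 passed in all 14 alternative fits of EYFP over EGFP. Psme2 passed in 13 of 14, and Psme3 in 12 of 14, with the losses falling where EYFP replicate 1 (both genes) or EGFP replicate 1 (Psme3) was left out. In EGFP over wild type, Psmb10 and Psme2 each passed in 13 of 14 and were lost without EGFP replicate 1, at edgeR adjusted p of up to 0.0743 and 0.0566. Psma4 was lost there in 5 of 14, Psmd8 in 9 and Psme1 in 10, upper-quartile scaling among them for all 3, and without EGFP replicate 1 none of the 5 lower calls was left. In EYFP over wild type the 18 lower calls were reduced to 8 without EYFP replicate 2.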

How the data were processed

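RNA came from RNeasy Micro columns, and TruSeq libraries were read as 50-base single ends on a HiSeq2000, per the labels' protocols. The authors deposited estimated counts per gene, and the submitters' processing notes name RSEM 1.3.1, Bowtie2, FastQC 0.11.8, DESeq2 1.26.0 and the build mm10, with no settings. The annotation was read from the accessions in the table, which are RefSeq. The estimated counts were rounded, and genes passing edgeR's filter by expression (13935 of 23845) were fitted with edgeR 4.0.16 in R 4.3.3: trimmed-mean scaling, 3 group means over the 6 libraries with 3 residual degrees of freedom, the robust quasi-likelihood test and Benjamini-Hochberg adjustment at 0.05 over all genes tested. CPM are counts divided by the scaled library size. SEs are the absolute log2 fold change divided by the square root of F, and intervals are at 95%. The method was tested on simulated data in which all genes shared the same spread and few genes were changed. Such data cannot check the scaling or the error rate in these libraries. Library totals of 7938358 to 20589683 limit precision for low genes, and 2 members were too low to test. Alternatives were other scalings, filters, DESeq2 1.42.0, fewer libraries, a replicate block and a 1.5-fold minimum. The members and lists were chosen with earlier results of these data known. Values in every library were given for the catalytic, interferon-inducible and ubiquitin-handling members, Psmc3ip and the largest change past the test of each role. The untested members were given by value or range. The first gene and the largest change of each pathway list were given by library values, a range or a fold change. Psmc2, Psme3, Psmf1, the other assembly factors and further pathway genes were named after their values were seen. The last 2 motifs were added after results were known. The counts of the list of ubiquitin genes are not reported here.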

Additional observations from a re-analysis of the deposited data

How the results depend on the processing

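No called fold change reversed under any alternative run. For EYFP over EGFP, the count of higher members (1) became 2 with DESeq2's size factors, 2 with DESeq2's Wald test, 0 when scaled without the 50 most abundant genes, 0 with a minimum of 10 counts, 0 at a 1.5-fold minimum, and 0 to 1 with a library left out. The lower count (12) became 6, 5 and 4 with the size factors, the Wald test and the 1.5-fold minimum, and 1 to 13 with a library left out. For EGFP over wild type, the higher count (1) became 0 without a filter on low counts, 6 under upper-quartile scaling, 0 at 1.5-fold, and 0 with any library left out. The lower count (5) became 3 with the size factors, 2 in a fit of only the 4 libraries compared, 2 under upper-quartile scaling, 2 at 1.5-fold, and 0 to 3 with a library left out. For EYFP over wild type, the higher count (2) became 4 with the size factors, 8 under upper-quartile scaling, 0 at 1.5-fold, and 0 to 3 with a library left out. The lower count (18) became 8 under upper-quartile scaling, 9 at 1.5-fold, and 8 to 15 with a library left out. The 1.5-fold minimum can only leave fewer calls by construction. Counts with a library left out could move either way, and the causes of the other changes were not tested. Deviations of same-numbered libraries correlated little, at 0.02, 0.10 and 0.01. These values alone cannot settle whether the replicate numbers pair the samples. With the replicate block the lower counts were 15, 5 and 20 and the higher counts 1, 1 and 2. Upper-quartile scaling was chosen after seeing the data.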
